A study of Mus musculus with 6 samples.

Results

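Glycolysis splits glucose into pyruvate in the cytosol, and its flow is set by glucose uptake, by the hexokinases and by the phosphofructokinases. Pyruvate is either reduced to lactate, which leaves the cell through monocarboxylate transporters, or oxidized in the mitochondria by pyruvate dehydrogenase. The pyruvate dehydrogenase kinases (PDH kinases) switch this enzyme off. Neural stem cells (NSCs) are known for a strongly glycolytic metabolism, astrocytes are the main glycogen store of the brain, and many genes of the pathway are known targets of the hypoxia-inducible factors, which accumulate when oxygen is low.

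The genes described here are the 33 listed genes of glucose uptake, glycolysis, lactate, pyruvate dehydrogenase control and glycogen turnover, found by symbol among the 32493 genes of the table. All 33 were among the 16710 genes that passed the filter on low counts. The series is RNA-seq of NSC cultures that asked how deletion of miR-151, a microRNA encoded in an intron of Ptk2, changes gene expression in these cells. The cko cells came from mice with both miR-151 alleles floxed and Emx1-IRES-Cre, and the ctrl cells, labelled wt, came from Cre-negative littermates with both alleles floxed, all on a C57BL/6J background. The cells were dissected from the lateral ventricles from embryos at E14.5 and grown for 3 generations in a B27 medium that, by the study's methods, also held EGF and bFGF. The Emx1 driver is active in the dorsal telencephalon, so cells of another origin in a cko culture would keep the floxed alleles. Every library held counts of both Xist and Y-linked genes, as a mix of female and male embryos would. How many embryos went into a library, and whether libraries of a group come from separate cultures, is not given. The p-values below thus measure only the spread between these libraries, which may be technical. The targeted microRNA was not analysed here.

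Each group had 3 columns, but the column labelled ctrl 2 was the rounded-up mean of ctrl 1 and ctrl 3 in 32493 of 32493 genes. It was left out, which leaves 2 ctrl and 3 cko libraries of 17883796 to 23335736 counts. NSC markers were abundant in every library, with a sum over the 15 listed markers of 6886 to 9466 normalized CPM (counts scaled to a common library size by the library total and its TMM factor). Microglial, endothelial and red cell markers were at or near 0, with sums over each list of at most 1.23, 7.22 and 0.961 CPM and with Cx3cr1, Tmem119, Itgam, Cdh5, Hba-a1, Hbb-bs and Hbb-y at 0 in every library. Because the 2 ctrl libraries stood apart on these genes, the members were compared with both of them together and with each alone.

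Promoter sequences are shown for the 4 members with the largest cko to ctrl difference and for Ldha, the member whose window held the most copies of the letters searched. Windows run from 250 bases before to 50 bases after an annotated start, are on GRCm38.p6 and come from RefSeq. Capitals mark ACGTG or GCGTG on either strand, the core letters of the element that hypoxia-inducible factors bind, with overlapping matches joined. The set was chosen after the values were seen.

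Slc2a1: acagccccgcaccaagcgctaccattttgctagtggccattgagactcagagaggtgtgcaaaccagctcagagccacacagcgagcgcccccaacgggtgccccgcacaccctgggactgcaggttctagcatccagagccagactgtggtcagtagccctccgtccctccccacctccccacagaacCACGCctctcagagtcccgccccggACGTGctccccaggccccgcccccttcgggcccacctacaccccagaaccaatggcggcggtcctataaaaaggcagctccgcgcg

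Hk2: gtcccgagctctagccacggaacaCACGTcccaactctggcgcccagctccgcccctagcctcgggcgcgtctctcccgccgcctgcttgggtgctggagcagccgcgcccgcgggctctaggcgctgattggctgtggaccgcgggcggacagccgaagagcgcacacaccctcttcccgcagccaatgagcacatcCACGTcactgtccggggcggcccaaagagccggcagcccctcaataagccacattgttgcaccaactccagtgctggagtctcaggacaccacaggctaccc

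Pdk1: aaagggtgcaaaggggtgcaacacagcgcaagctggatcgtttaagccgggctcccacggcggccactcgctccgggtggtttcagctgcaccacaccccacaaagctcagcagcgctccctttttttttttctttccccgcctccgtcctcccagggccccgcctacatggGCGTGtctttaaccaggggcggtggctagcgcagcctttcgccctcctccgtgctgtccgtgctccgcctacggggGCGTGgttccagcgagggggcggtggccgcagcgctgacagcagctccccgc

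Slc16a3: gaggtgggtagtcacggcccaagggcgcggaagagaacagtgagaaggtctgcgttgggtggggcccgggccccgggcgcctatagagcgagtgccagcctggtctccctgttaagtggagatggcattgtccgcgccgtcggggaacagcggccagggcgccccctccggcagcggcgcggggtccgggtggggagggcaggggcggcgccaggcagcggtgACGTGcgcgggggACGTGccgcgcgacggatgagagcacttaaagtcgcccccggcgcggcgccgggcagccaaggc

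Ldha: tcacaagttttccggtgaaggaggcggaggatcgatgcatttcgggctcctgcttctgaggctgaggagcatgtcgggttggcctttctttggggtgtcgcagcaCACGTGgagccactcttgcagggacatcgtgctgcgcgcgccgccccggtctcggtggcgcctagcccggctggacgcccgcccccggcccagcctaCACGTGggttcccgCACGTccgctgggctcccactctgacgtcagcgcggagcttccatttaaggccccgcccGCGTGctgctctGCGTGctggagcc

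These windows are chr4:119108495-119108794 on the plus strand for Slc2a1, chr6:82774405-82774704 on the minus strand for Hk2, chr2:71872974-71873273 on the plus strand for Pdk1, chr11:120948817-120949116 on the plus strand for Slc16a3 and chr7:46845554-46845853 on the plus strand for Ldha. The Ldha window held 5 marked stretches and each of the other windows 2. Of the 33 members, 31 had a window, and Slc2a3 and Bsg had none. At least 1 match lay in a window of 26 of the 31 members, or 83.9%, against 66.7% of 11295 tested genes with a window and 46.7% of all 27025 genes with one. ACGTG alone was found for 19 members, or 61.3%, against 28.7% of the tested genes, and GCGTG alone for 20 members, or 64.5%, against 55.2%. A gene with several annotated starts has several windows, and members had 47 windows over 31 genes against 14465 over 11295 tested genes. Counted per window, either form was found in 76.6% of the members' windows and 60.7% of those of the tested genes. The CACGTG form in the Ldha window is also the E-box letters, which other factors bind. Gpi1, Tpi1, Eno2, Gbe1 and Gys1 had no match in any window. A match is a string of letters and not a measured binding site.

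The glycolytic and glycogen genes were lower in cko than in ctrl. In the fit of the 3 cko against both ctrl libraries, 23 of the 33 members fell and none rose at an adjusted p under 0.05 (edgeR's quasi-likelihood test with Benjamini-Hochberg adjustment over all 16710 genes), where 8.57% of all genes tested were called lower and 7.86% higher. At an unadjusted p under 0.05, 27 members were lower and 0 higher, against 16.7% and 15.9% of all genes tested. With the study's threshold, which asks for a log2 difference over 0.9 at a raw p below 0.01 and was set there on DESeq2, applied here to the edgeR values, 18 members were lower, against 4.17% of all genes tested. The median log2 fold change, cko over ctrl, was −1.02 over the members and 0.00 over all genes tested. In 26 of the 33 members all 3 cko libraries lay below both ctrl libraries, against 24.3% of all genes tested, and in 0 they lay above both, against 25.4%. The members together took 0.763% of the counts in ctrl 1, 1.30% in ctrl 3 and 0.533% to 0.558% in the cko libraries. A lower level in bulk RNA can come from fewer cells of a type or from less RNA per cell, which cannot be told apart here. The count of 23 rested on all 3 cko libraries: it was 12 without cko 1, 6 without cko 2 and 6 without cko 3, where the calls over all genes also dropped, from 1432 lower to 907, 416 and 457. It was 27 without ctrl 1 and 24 without ctrl 3. Pfkl, Pfkm, Pdk1, Pdk2 and Pdk4 were the 5 members whose call held in all 16 alternative fits.

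**Figure D1:**
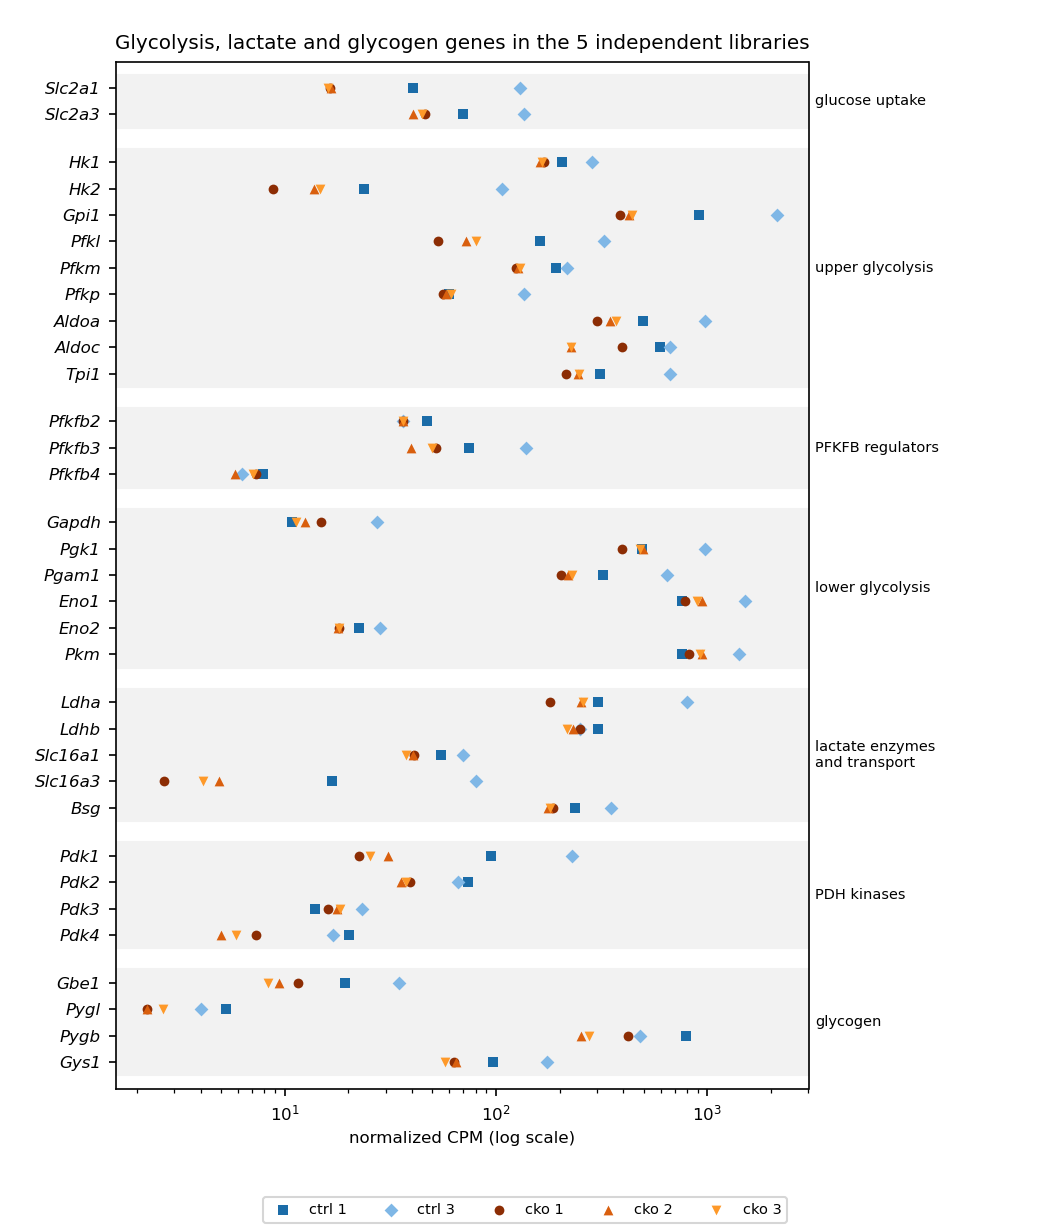
Normalized CPM (log axis) of the 33 members in ctrl 1, ctrl 3, cko 1, cko 2 and cko 3, one point per library, grouped by role. The light diamonds of ctrl 3 lie farthest right in 26 members, and all cko points lie left of both ctrl points in 26.

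The 2 ctrl libraries differed on these genes by almost as much. In a fit with ctrl 1, ctrl 3 and cko as separate levels, 20 of the 33 members were higher in ctrl 3 than in ctrl 1 and 0 lower, where 2.26% of all genes tested were called higher in ctrl 3 and 1.65% higher in ctrl 1. The spread in this fit comes from the cko libraries alone, so each lone ctrl library is assumed to vary as they do. The median log2 difference, ctrl 3 over ctrl 1, was 0.90 over the members, and the fold ran from 0.609 for Pygb to 4.79 for Slc16a3. At an unadjusted p under 0.05, 3 members were higher in ctrl 1, against 8.95% of all genes tested. Ctrl 3 was the highest of the 5 libraries in 26 members, against 25.2% of all genes tested. By contrast the cko libraries lay closer together, with a median fold of 1.15 between the highest and the lowest of them. This fold reached 1.82 for Slc16a3, and it was not computed over all genes tested.

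Both ctrl libraries nonetheless differed from cko in the same direction for most members. Against ctrl 1 alone, 24 of the 33 members were lower in cko and 0 higher, where 10.5% of all genes tested were called lower and 10.2% higher, and 1 member was higher at an unadjusted p under 0.05, against 17.6%. With the study's threshold 12 members were lower, against 4.18% of all genes tested. Against ctrl 3 alone, 27 were lower and 0 higher, where 11.8% were called lower and 10.4% higher, and 20 passed the study's threshold, against 4.82%. The median log2 fold change was −0.57 against ctrl 1 and −1.21 against ctrl 3. These comparisons share the cko libraries, and the difference between them is the ctrl 1 to ctrl 3 difference above. Ctrl 1 lay above every cko library in 27 members, within the cko range in 2, Pfkp and Pgk1, and below every cko library in 4, Gapdh, Eno1, Pkm and Pdk3, against 37.5%, 25.2% and 37.3% of all genes tested. Ctrl 3 lay above every cko library in 32 members, within the cko range in 1, Pfkfb4, and below every cko library in 0, against 36.5%, 24.6% and 38.9%.

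**Figure D2:**
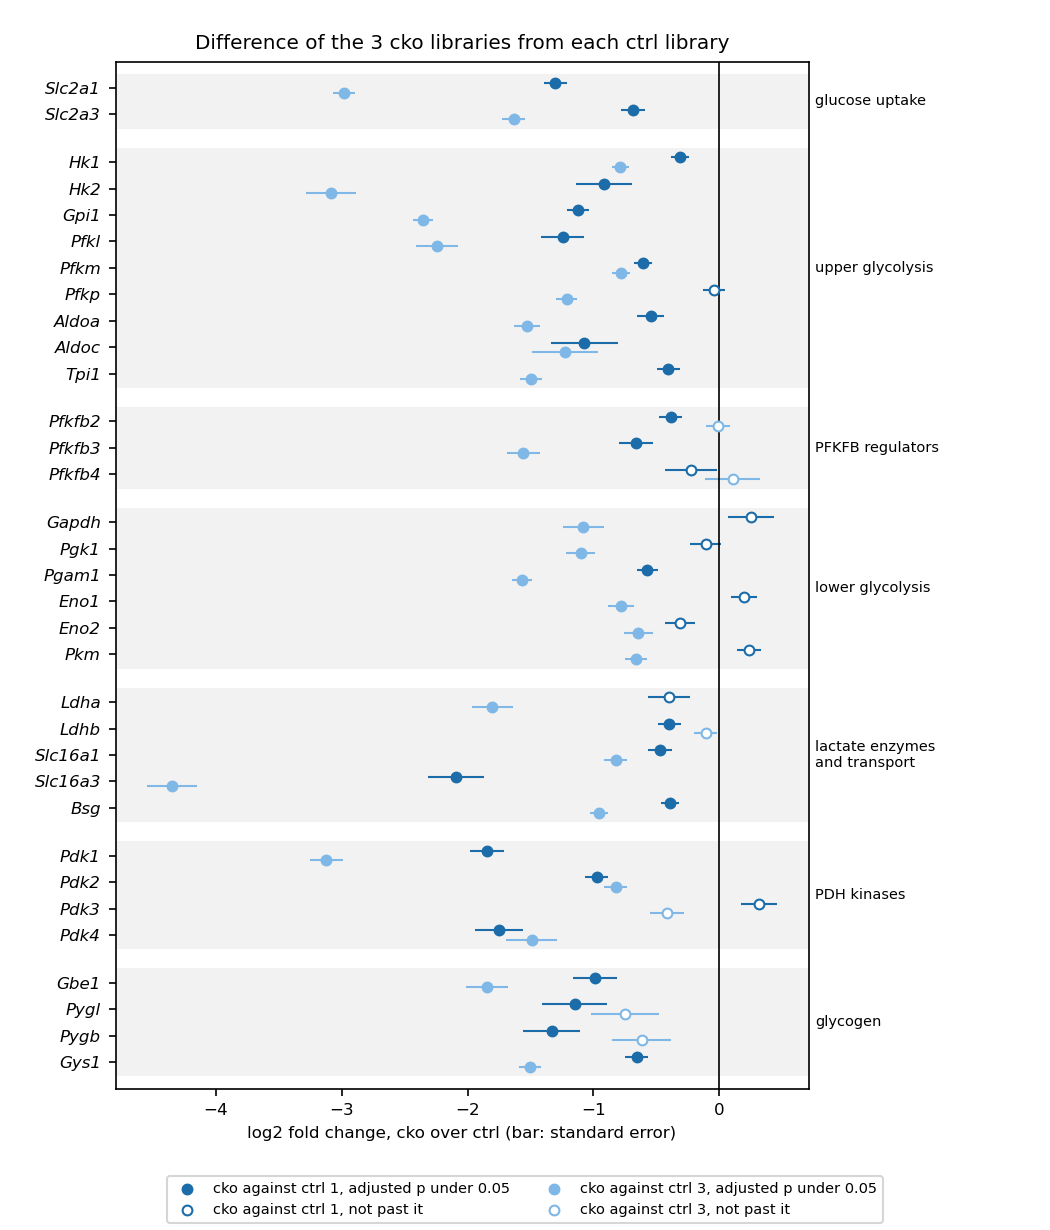
Log2 fold change, cko over ctrl, of each member against ctrl 1 alone (dark) and ctrl 3 alone (light), with bars of 1 standard error; filled points had an adjusted p under 0.05. Of the dark points 24 are filled and of the light points 27, and the light points of Slc2a1, Hk2, Pdk1 and Slc16a3 reach −2.98 to −4.35.

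Both glucose transporters fell in cko against each ctrl library. Slc2a1 encodes GLUT1, the transporter of glial and endothelial cells, and Slc2a3 encodes GLUT3, the neuronal transporter. Slc2a1 stood at 40.3 CPM in ctrl 1, 129 in ctrl 3 and 16.4, 16.6 and 16.0 in cko 1, 2 and 3. The cko libraries were nearly equal and both ctrl libraries were above them, ctrl 3 by 7.91-fold. The log2 fold change was −2.37 ± 0.408 (SE; n = 2 ctrl and 3 cko; edgeR adjusted p = 0.0103), and it was −1.30 against ctrl 1 and −2.98 against ctrl 3. Slc2a3 stood at 69.9 CPM in ctrl 1, 135 in ctrl 3 and 46.1, 40.4 and 44.4 in cko, again without overlap (log2 fold change −1.23 ± 0.239, adjusted p = 0.0155). Per kb of exon, with all annotated exons of a gene merged, the Slc2a1 to Slc2a3 ratio of levels was 1.19 and 1.97 in the ctrl libraries. It was 0.735 to 0.848 in the cko libraries. The size of such a ratio depends on these lengths, 3506 bases for Slc2a1 and 7245 for Slc2a3, and its order over the libraries does not.

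Of the 9 members of upper glycolysis, which prime glucose and split it into triose phosphates, 8 fell in cko against ctrl and 7 were higher in ctrl 3 than in ctrl 1. Hk2, the inducible hexokinase, stood at 23.6 CPM in ctrl 1, 107 in ctrl 3 and 8.79, 13.8 and 14.8 in cko. Ctrl 3 was far above the other 4 libraries, and ctrl 1 was above all cko libraries by less. Its log2 fold change was −2.37 ± 0.544 (adjusted p = 0.0271), from −0.91 against ctrl 1 and −3.09 against ctrl 3. Hk1, the constitutive hexokinase, fell by 0.56 on the log2 scale (adjusted p = 0.0279), with 204 and 284 CPM in ctrl and 162 to 168 in cko. Per kb of exon Hk2 was below Hk1 in every library, at a ratio of 0.166 in ctrl 1, 0.537 in ctrl 3 and 0.0747 to 0.128 in cko.

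Gpi1 encodes glucose-6-phosphate isomerase, the step after the hexokinases. It stood at 909 CPM in ctrl 1, 2135 in ctrl 3 and 385, 425 and 442 in cko. The 3 cko libraries were well below both ctrl libraries, with a log2 fold change of −1.87 ± 0.298 (adjusted p = 0.00799), or −1.12 against ctrl 1 and −2.35 against ctrl 3. An antisense-strand long noncoding RNA, Gm26762, shares 11.5% of the Gpi1 exon bases, and it is not given whether strand was used in counting.

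The phosphofructokinases, which commit glucose to the pathway, gave 3 patterns over the libraries. Pfkl stood at 162 CPM in ctrl 1, 325 in ctrl 3 and 53.0, 71.9 and 80.0 in cko. It fell, with all cko libraries under both ctrl libraries (log2 fold change −1.83 ± 0.282, adjusted p = 0.00708; −1.24 against ctrl 1 and −2.25 against ctrl 3). Pfkm stood at 193 and 218 CPM in ctrl and 124, 127 and 130 in cko. Its 2 ctrl libraries were close together (log2 difference, ctrl 3 over ctrl 1, 0.17, adjusted p = 0.349) and both were above cko (log2 fold change −0.69 ± 0.0789, adjusted p = 0.00265), with −0.60 against ctrl 1 and −0.78 against ctrl 3. Pfkp stood at 60.0 CPM in ctrl 1, which lay inside the cko range of 55.8 to 61.0, and at 135 in ctrl 3. Its adjusted p was 0.119 against both ctrl libraries, 0.789 against ctrl 1 and 7.25e-05 against ctrl 3. The Pfkm to Pfkl ratio per kb was 2.38 and 1.34 in ctrl and 3.24 to 4.66 in cko, without overlap. A gene on the same strand, Gm26513, shares 10.2% of the Pfkm exon bases.

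Aldolase and triose-phosphate isomerase, which make and interconvert the trioses, were also lower. Aldoa stood at 494 CPM in ctrl 1, 976 in ctrl 3 and 300.2, 346 and 371 in cko. Both ctrl libraries were above all cko libraries (log2 fold change −1.12 ± 0.249, adjusted p = 0.0248), and the log2 fold change was −0.54 against ctrl 1 and −1.53 against ctrl 3. Tpi1 stood at 311 and 665 CPM in ctrl and 215, 245 and 246 in cko (log2 fold change −1.05 ± 0.268, adjusted p = 0.0377). Aldoc, the aldolase of astrocytes, followed another pattern, with 594 and 662 CPM in ctrl and 396, 226 and 227 in cko. Here the ctrl libraries were close (adjusted p = 0.854 for their difference), and cko 1 was the library that stood apart from the other cko libraries. The log2 fold change was −1.15 ± 0.236 (adjusted p = 0.0189).

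The PFKFB enzymes make and remove fructose 2,6-bisphosphate, the activator of phosphofructokinase, and 1 of the 3 fell. Pfkfb3, the most kinase-biased of them, stood at 74.6 CPM in ctrl 1, 139 in ctrl 3 and 39.8 to 52.1 in cko. Both ctrl libraries lay above cko (log2 fold change −1.17 ± 0.241, adjusted p = 0.0189). Pfkfb2 stood at 47.2 CPM in ctrl 1 and 36.3 in ctrl 3, with 36.1 to 36.3 in cko, so only ctrl 1 lay clearly apart (adjusted p = 0.266 for cko against ctrl). A protein-coding gene on the same strand, Gm29427, shares 17.4% of the Pfkfb2 exon bases. Pfkfb4 stood at 7.86 and 6.24 CPM in ctrl and 5.83 to 7.33 in cko, and the groups overlapped (log2 fold change −0.07 ± 0.194, adjusted p = 0.843).

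Lower glycolysis, which yields ATP and pyruvate, gave different counts against each ctrl library. Against both ctrl libraries 2 of its 6 members fell, Pgam1 and Eno2; against ctrl 3 alone all 6 were lower in cko, and against ctrl 1 alone 1 was, Pgam1. Pgam1, phosphoglycerate mutase, stood at 322 CPM in ctrl 1, 643 in ctrl 3 and 202, 220 and 228 in cko (log2 fold change −1.15 ± 0.245, adjusted p = 0.0211). Eno2, the neuronal enolase, stood at 22.4 and 28.1 CPM in ctrl and 17.9 to 18.1 in cko (log2 fold change −0.49 ± 0.127, adjusted p = 0.0403). For both genes the cko libraries lay below both ctrl libraries.

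Eno1, the general enolase, stood at 762 CPM in ctrl 1, 1500 in ctrl 3 and 782, 944 and 896 in cko. Ctrl 3 was high and ctrl 1 was the lowest of the 5 libraries, so the groups overlapped. The log2 fold change was 0.20 against ctrl 1 (adjusted p = 0.230) and −0.78 against ctrl 3 (adjusted p = 0.00132). Pkm, pyruvate kinase, had the same order, with 758 CPM in ctrl 1, 1413 in ctrl 3 and 817, 942 and 922 in cko. Its log2 fold change was 0.24 against ctrl 1 (adjusted p = 0.115) and −0.66 against ctrl 3 (adjusted p = 0.00165). For Pgk1, phosphoglycerate kinase, ctrl 1 at 492 CPM lay inside the cko range of 394 to 494 and ctrl 3 stood at 978. Against both ctrl libraries the adjusted p was 0.341 for Eno1, 0.435 for Pkm and 0.11 for Pgk1. A gene on the same strand, Gm49759, shares 15.3% of the Pkm exon bases.

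Gapdh, the glyceraldehyde-phosphate dehydrogenase often used as a reference gene, was counted at a very low level. It stood at 10.8 CPM in ctrl 1, 27.2 in ctrl 3 and 14.9, 12.5 and 11.4 in cko, or 2.61 to 6.58 CPM per kb in the ctrl libraries. The genome holds 170 near-identical copies of it (at least 90% identity over at least 200 bases), of which 96 had counts, and these copies together held 222% of the reads counted to Gapdh itself. Its level and its difference (log2 fold change −0.55 ± 0.344, adjusted p = 0.308) are therefore uncertain. With the copies added, the log2 fold change was −0.54 against both ctrl libraries (adjusted p = 0.101), −0.12 against ctrl 1 and −0.87 against ctrl 3. In the other 10 members with such copies, the copies held at most 1.91% of the member's counts. How reads that match both a member and a copy were counted is not given, so reads dropped from both would not be seen.

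**Figure D3:**
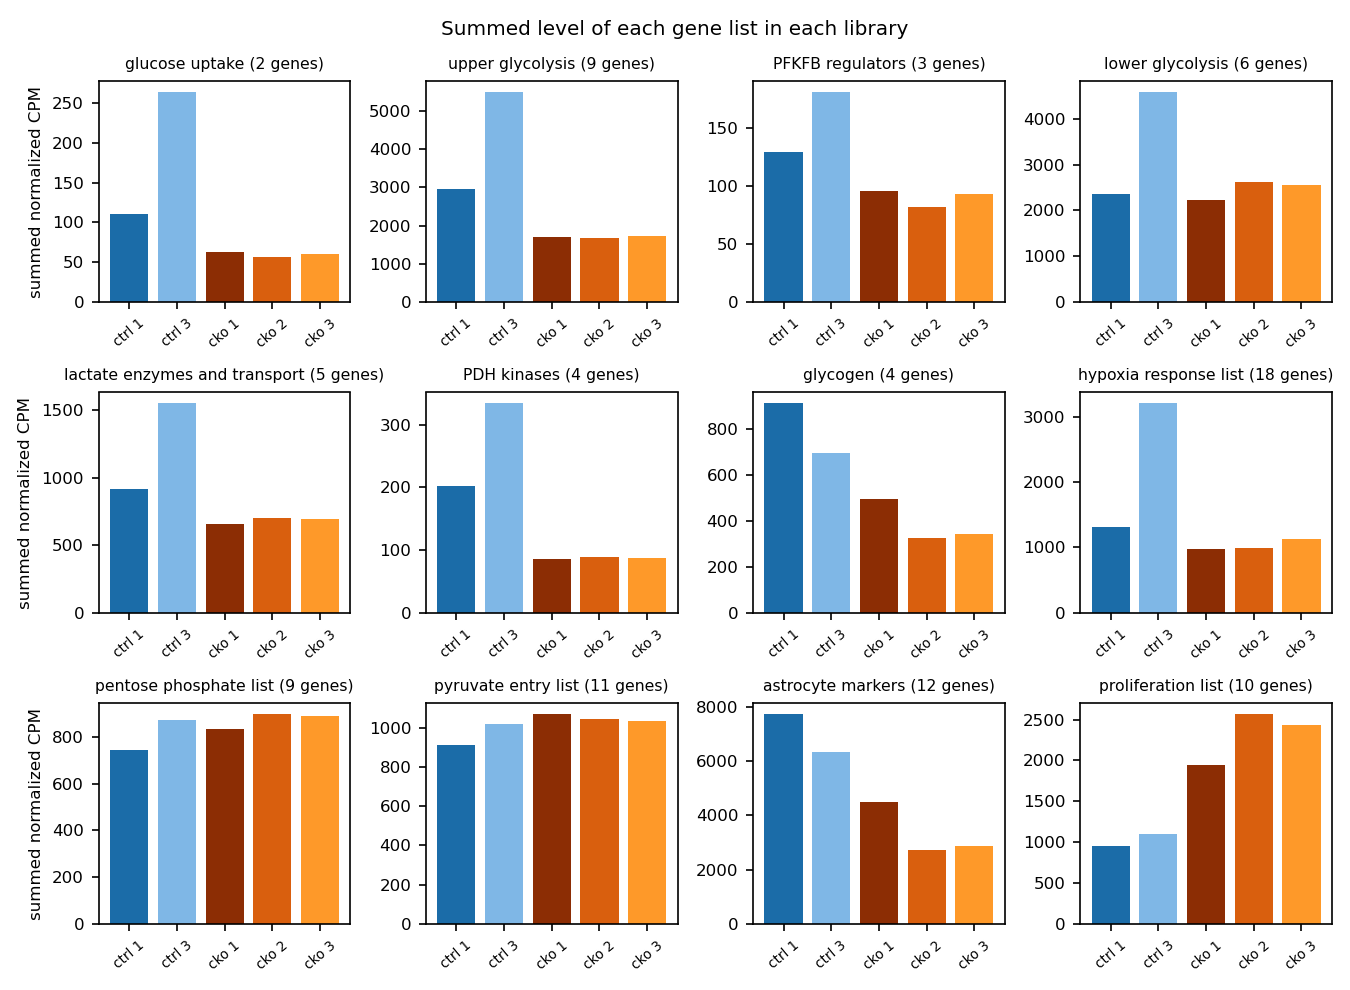
Summed normalized CPM (bars from 0, own scale in each panel) of the 7 roles and of 5 further gene lists in each of the 5 libraries. Upper glycolysis stands at 2951 in ctrl 1, 5505 in ctrl 3 and 1675 to 1737 in cko, while lower glycolysis is at 2367 in ctrl 1, within the 2228 to 2630 of cko.

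The lactate step followed ctrl 3 for Ldha and not for Ldhb. Ldha, the subunit that favours lactate formation, stood at 303 CPM in ctrl 1, 802 in ctrl 3 and 181, 252 and 257 in cko. All cko libraries were below both ctrl libraries, yet the log2 fold change of −1.26 ± 0.355 missed the threshold (adjusted p = 0.0509). It was −0.40 against ctrl 1 (adjusted p = 0.137), −1.80 against ctrl 3 (adjusted p = 0.000259), and Ldha was higher in ctrl 3 than in ctrl 1 by 1.40 on the log2 scale (adjusted p = 0.0154). Ldhb, the subunit that favours lactate use, stood at 305 CPM in ctrl 1, 249.6 in ctrl 3 and 249, 231 and 216 in cko. Here ctrl 1 was the highest library and the log2 fold change was −0.26 ± 0.106 (adjusted p = 0.143). The Ldha to Ldhb ratio per kb was 0.472 in ctrl 1, 1.52 in ctrl 3 and 0.344, 0.519 and 0.563 in cko. Ctrl 3 was thus the highest, and ctrl 1 lay among the cko libraries. The ratio passed 1 only in ctrl 3 with the exon lengths used, 3310 bases for Ldha and 1570 for Ldhb. In plain CPM Ldha was above Ldhb in cko 2 and cko 3 as well.

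The lactate transporters fell, and Slc16a3 had the largest difference of the 33 members. It encodes MCT4, the low-affinity exporter of glycolytic cells, and stood at 16.8 CPM in ctrl 1, 80.6 in ctrl 3 and 2.69, 4.89 and 4.09 in cko. Both ctrl libraries were above every cko library, by 4.33-fold for ctrl 1 and 20.7-fold for ctrl 3 over the cko mean. The log2 fold change was −3.62 ± 0.601 (adjusted p = 0.00915), −2.09 against ctrl 1 and −4.35 against ctrl 3. Slc16a1, encoding MCT1, fell by 0.66 (adjusted p = 0.0109) and Bsg, encoding their chaperone basigin, by 0.70 (adjusted p = 0.0213) on the log2 scale. Slc16a1 stood at 54.8 and 70.0 CPM in ctrl and 37.6 to 40.8 in cko, and Bsg at 237 and 349.5 in ctrl and 176 to 186 in cko, neither with overlap. Per kb the Slc16a1 to Slc16a3 ratio was 1.04 in ctrl 3, 3.92 in ctrl 1 and 9.93 to 18.2 in cko.

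**Figure D4:**
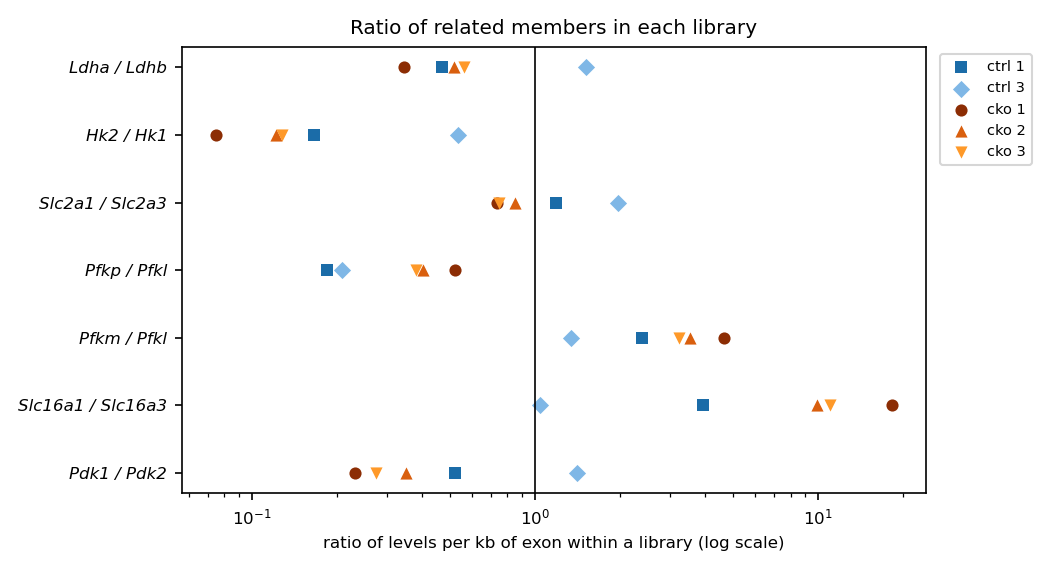
Ratio of levels per kb of exon (log axis) between related members within each library, with a line at 1. Whether a ratio passes 1 depends on the exon lengths used. Ldha over Ldhb and Pdk1 over Pdk2 pass 1 in ctrl 3 only, at 1.52 and 1.41, and Slc16a1 over Slc16a3 runs from 1.04 in ctrl 3 to 18.2 in cko 1.

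The PDH kinases, which switch off pyruvate dehydrogenase, fell in 3 of 4 cases. Pdk1, a known hypoxia target, stood at 94.4 CPM in ctrl 1, 229 in ctrl 3 and 22.4, 30.7 and 25.2 in cko. Both ctrl libraries were far above cko, by 3.61-fold and 8.75-fold over the cko mean. The log2 fold change of −2.62 ± 0.332 had an adjusted p of 0.00374, and it was −1.85 against ctrl 1 and −3.12 against ctrl 3. Pdk2 stood at 73.4 and 66.1 CPM in ctrl and 39.3, 35.7 and 37.3 in cko, and Pdk4, the kinase induced by fasting and fatty acids, at 20.2 and 16.9 in ctrl and 7.27, 5.02 and 5.88 in cko. In these 2 genes ctrl 1 was slightly the higher of the ctrl libraries (adjusted p = 0.522 and 0.614 for the difference), and both lay above cko. Their log2 fold changes were −0.90 ± 0.0869 (adjusted p = 0.00184) and −1.62 ± 0.187 (adjusted p = 0.00278). Pdk3 stood at 13.9 CPM in ctrl 1, 23.2 in ctrl 3 and 16.0 to 18.3 in cko, with cko between the ctrl libraries (adjusted p = 0.804).

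Glycogen genes fell in all 4 cases, and their order among the ctrl libraries varied. Gys1, glycogen synthase, stood at 97.1 CPM in ctrl 1, 174 in ctrl 3 and 63.5, 64.3 and 57.0 in cko (log2 fold change −1.14 ± 0.214, adjusted p = 0.0140). Gbe1, the branching enzyme, stood at 19.3 and 34.9 CPM in ctrl and 11.5, 9.43 and 8.36 in cko (log2 fold change −1.47 ± 0.254, adjusted p = 0.0105). In both genes ctrl 3 was the higher ctrl library and no cko library reached ctrl 1. The log2 fold change of Gys1 was −0.66 against ctrl 1 and −1.50 against ctrl 3, and that of Gbe1 −0.99 and −1.84. Pygb, the brain glycogen phosphorylase, stood at 792 CPM in ctrl 1, 482 in ctrl 3 and 420, 251 and 274 in cko (log2 fold change −1.02 ± 0.261, adjusted p = 0.0388). Here ctrl 1 was the highest library and cko 1 came close to ctrl 3, and the adjusted p was 0.00528 against ctrl 1 and 0.0966 against ctrl 3. Pygl, the liver form, was low, at 5.29 and 4.0 CPM in ctrl and 2.23 to 2.67 in cko (log2 fold change −0.97 ± 0.236, adjusted p = 0.0330). The log2 fold change against ctrl 3 alone was −0.62 for Pygb and −0.75 for Pygl. The Pygl call was lost without ctrl 1, without any single cko library, and with the replicate block in edgeR and DESeq2. The Pygb call was lost without ctrl 1, cko 2 or cko 3, and in DESeq2. The Gys1 call was lost without any single cko library, and the Gbe1 call without cko 2 or cko 3.

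Compared per length, 11 members had a mean over the 5 libraries above 100 CPM per kb of merged annotated exons. The order below rests on these lengths, such as 2244 bases for Pgk1, 5379 for Eno1 and 6452 for Gpi1. In plain CPM, Eno1 and Gpi1 were above Pgk1 in ctrl 1 (762 and 909 against 492) and in ctrl 3 (1500 and 2135 against 978). In the cko libraries Eno1 was above Pgk1 and Gpi1 below it. The highest were Pgk1 at 253, Pkm at 194, Eno1 at 182, Aldoa at 171, Pgam1 at 163 and Ldhb at 159 CPM per kb, and the lowest was Pygl at 0.476. Pgk1 was the highest member in ctrl 1, in ctrl 3 and in the cko mean, but the order under it changed: Ldhb at 194 and Aldoc at 182 followed in ctrl 1, Aldoa at 335 and Gpi1 at 331 in ctrl 3, and Pkm and Eno1 in cko. In the cko libraries Pgk1 held 203 ± 24.4 CPM per kb (SD, n = 3), Pkm 179 ± 13.4 and Eno1 163 ± 15.4, so that neighbours in this order lay about 1 SD apart. Gpi1, at 331 CPM per kb in ctrl 3 and 64.7 ± 4.55 in cko, had the largest log2 fold change, cko over ctrl, of these 11 members.

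Among further genes of glucose metabolism, a part of the glycogen genes fell, and most genes of the other lists did not pass the test. Of 17 tested further glycolytic enzymes and transporters, 2 fell in cko, the lactate transporter Slc16a8 (log2 fold change −1.65) and the D-lactate dehydrogenase Ldhd (−2.20). Ldhd had few counts, 50 and 43 in ctrl and 10, 6 and 14 in cko. Of the 17 genes 1 rose, the lactate importer Slc16a7 (0.60). None of them differed between the ctrl libraries by the edgeR fit, with 1 at an unadjusted p under 0.05. Of 20 further glycogen genes 9 fell and 0 rose (7 and 1 against ctrl 1 alone, 11 and 0 against ctrl 3 alone), among them Phkb, a subunit of phosphorylase kinase (−0.63, adjusted p = 0.00352). Phkb stood in all cko libraries below both ctrl libraries, at 76.3 to 84.6 CPM against 124 and 120. Of these 20, 2 were higher in ctrl 3 than in ctrl 1, Pgm1, which links glucose 1-phosphate to glycolysis, and the muscle phosphorylase Pygm.

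Among 11 genes of the mitochondrial pyruvate carrier, pyruvate dehydrogenase and its phosphatases, and pyruvate carboxylase, 1 rose and 0 fell. The carrier genes Mpc1 and Mpc2 were not called (log2 fold change −0.07 and 0.01). The gene that rose was Pcx, pyruvate carboxylase, at 171 and 160 CPM in ctrl and 295, 303 and 288 in cko (log2 fold change 0.84 ± 0.0745, adjusted p = 0.00138). In this list Dlat, a subunit of pyruvate dehydrogenase, was higher in ctrl 3 than in ctrl 1. Of 9 pentose phosphate genes 1 rose, Taldo1, transaldolase (0.41, adjusted p = 0.0141), and 0 fell. Of 3 tested gluconeogenesis genes 1 rose, Fbp1 (1.17), and 1 fell, G6pc3 (−0.81). The median log2 fold change was −0.15 in the further glycolytic list, −0.36 in the glycogen list, −0.06 in the pyruvate list and 0.15 in the pentose phosphate list.

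Hypoxia-responsive genes outside glucose metabolism were also lower in cko, mostly against ctrl 3. Of 17 tested genes of that list 10 fell in cko and 0 rose, with a median log2 fold change of −1.60, and 13 were higher in ctrl 3 than in ctrl 1. Against ctrl 1 alone 9 were lower and 1 higher, with a median of −0.76, and against ctrl 3 alone 16 were lower and 0 higher, with a median of −2.13. The gene that was higher than in ctrl 1 was Ddit4 (0.53, adjusted p = 0.0157), named after its values were seen. The summed level of the 18 listed genes was 1319 CPM in ctrl 1, 3212 in ctrl 3 and 971 to 1126 in cko. The smallest p-values in cko against ctrl were those of Ak4, a mitochondrial adenylate kinase (log2 fold change −1.88, adjusted p = 0.00370), and Ndrg1, a stress-response gene (−2.99, adjusted p = 0.00415). Between the ctrl libraries they were those of P4ha2, a collagen prolyl hydroxylase at 14.1 CPM in ctrl 1, 74.0 in ctrl 3 and 2.44 to 2.85 in cko, and Ero1l, an oxidase of the endoplasmic reticulum at 68.7, 284 and 32.3 to 41.6 CPM. Oxygen during culture is not given beyond the medium and generations, and the part of oxygen in the members' values was not tested.

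Other groups of genes also differed between cko and ctrl. Of 10 proliferation genes 9 rose in cko against both ctrl libraries, 10 against ctrl 1 and 9 against ctrl 3, with a sum of 955 and 1104 CPM in ctrl and 1945 to 2568 in cko. Of 12 astrocyte markers 8 fell and 0 rose, with sums of 7746 and 6344 CPM in ctrl and 4495, 2727 and 2860 in cko 1, 2 and 3. Aldoc and Pygb, which astrocytes express, had their highest cko value in cko 1, as this sum did. So did other members, among them Slc2a3, Hk1, Pdk2, Bsg and Gbe1, and the rest had it in cko 2 or cko 3. Against ctrl 1 alone 11 of these markers were lower and 0 higher, against ctrl 3 alone 8 were lower and 1 higher, and 1 was higher in ctrl 1 than in ctrl 3. Of 12 oligodendrocyte markers 7 fell and 2 rose, with sums of 3252 and 3875 CPM in ctrl and 3524 to 3781 in cko. Of 9 tested neuron markers 2 rose and 1 fell, of 14 tested NSC markers 5 rose and 1 fell, of 4 tested mural and meningeal markers 1 fell, and no tested endothelial or red cell marker was called by edgeR, with 0 at an unadjusted p under 0.05. The part of these cells in the members' values was not tested.

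Sex-linked genes differed as well. Xist stood at 2889 and 2557 CPM in ctrl and 787 to 894 in cko. All 4 Y-linked genes tested were higher in cko, Kdm5d by 1.40, Eif2s3y by 1.30, Uty by 1.24 and Ddx3y by 0.92 on the log2 scale. Summed over these 5 genes, the level was 2984 and 2674 CPM in ctrl and 1043 to 1144 in cko. In every library this sum was above Xist alone, so Y-linked genes were counted in both groups. Pgk1 and Pdk3 are the X-linked members, and neither was called in cko against ctrl. The part of sex in the members' values was not tested.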

How the data were processed

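RNA-seq libraries of E14.5 NSC cultures were compared, with groups taken from the labels. Per the study's methods, the authors checked reads with FastQC, filtered them with NGSQC and aligned them to mm10 with HISAT2; the submitters' processing notes name GRCm39 instead. The counting tool, annotation and use of strand are not given in the sources used here. The deposited values are raw counts per gene; the labels name RNeasy and SMARTER kits, the methods TRIzol.

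Of 32493 gene IDs, 31836 were matched to symbols in GENCODE M21 on GRCm38 and 657 were not. Aldoa, with 2 IDs, was read from the ID with the longer exons. Low counts were removed with filterByExpr, libraries were scaled by TMM (factors 0.99 to 1.01) and genes were tested with edgeR 4.0.16 (limma 3.58.1, R 4.3.3), two-sided, with 3 residual degrees of freedom by genotype and 2 with the ctrl libraries apart. DESeq2 1.42.0, other scalings, filters, left-out libraries, the study's threshold (log2 fold change beyond 0.9 and unadjusted p under 0.01) and a replicate block were alternatives. Near-identical copies were found with blastn 2.17.0 (alignment of at least 50% of the copy). A count of 3, or 0.129 to 0.168 CPM, is the limit that a count of 0 allows, for counting error only. Scripts were tested on simulated data. The text names every member, up to 2 genes by p in each direction of each pathway list and, of markers, only those that touch a result. One gene that this rule names is not reported here. The members and lists were chosen with earlier results of these data known.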

Additional observations from a re-analysis of the deposited data

How the results depend on the processing

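The direction was negative in cko against ctrl for all 33 members, and over the 4 comparisons 1291 of 1419 member values under other settings kept their direction and side of the threshold, 69 lost and 49 gained a call and 10 changed sign. Counts of members lower in cko against ctrl (23) ranged from 18 to 30 under other tools, scalings, filters and thresholds, and from 6 to 27 when libraries were left out; the test without a cko library has fewer samples. With the study's threshold 18 members were lower in cko against ctrl, 12 (from 24) against ctrl 1 and 20 (from 27) against ctrl 3. Counts of members higher went from 0 to 2 against ctrl 1 and from 0 to 1 in ctrl 1 over ctrl 3 with no filter on low counts, and from 0 to between 0 and 3 in both when a cko library was left out; the cause was not tested. With each library left out in turn, the log2 fold change of Pfkfb4 ran from −0.22 to 0.10 (above 0 without ctrl 1 or cko 2), of Gapdh from −1.09 to 0.26, of Eno1 from −0.79 to 0.20, of Pkm from −0.67 to 0.24 and of Pdk3 from −0.42 to 0.32, the last 4 above 0 without ctrl 3, where ctrl 1 is the only ctrl library. Gapdh against ctrl 1 was −0.12 with its copies added, and Pfkfb2 against ctrl 3 was 0.00868 with library totals.

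Whether the shared replicate numbers mark pairs is not given. With only 2 pairs, the ctrl 1 minus ctrl 3 and cko 1 minus cko 3 differences correlated at 0.152 across genes. This value cannot decide it, because no other pairing was compared. A fit that blocked on the replicate number called 23 members lower in cko, and DESeq2 with that block, added after seeing the data, called 18; the block in edgeR changed 4 calls (Pgk1 and Ldha gained, Eno2 and Pygl lost) and turned Pfkfb4 to 0.038 (0.037 in DESeq2). With all 6 columns 24 members were lower, 25 in DESeq2 and 27 with the block. These fits count the ctrl 2 column as a library, though it is the mean of ctrl 1 and ctrl 3, which shrinks the ctrl spread. Calls lower over all genes rose as well, from 1432 to 2794 in edgeR, from 1574 to 2520 in DESeq2 and from 1065 to 2673 with the block. No paired analysis was possible for the comparisons with a single ctrl library because each holds 1 ctrl library. Among the members, depth limits Pygl and Slc16a3 most, with as few as 40 and 48 counts in cko 1.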
